A study of Mus musculus with 22 samples.

Results

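The mitochondrial respiratory chain and ATP synthase include nuclear-encoded subunits among others. Here 75 nuclear genes for such subunits were examined for chromatin accessibility in mouse hepatocyte nuclei. They were chosen by gene name (Nduf, Sdh, Uqcr, Cox and Atp5 families) among the 15686 genes that had at least 1 accessible region, or peak, within 50 kb of their transcription start. By complex, 34 belong to complex I, 4 to complex II, 8 to complex III, 14 to complex IV and 14 to complex V, the ATP synthase. The remaining member is Atp5s, which encodes a protein named as a coupling factor of ATP synthase and also known as Dmac2l. Ndufa4 and its relative Ndufa4l2 were counted with complex IV, in which the NDUFA4 protein is now placed.

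ATAC-seq, which cuts and tags open DNA with a transposase, was run on nuclei captured from livers of 22 male HEP-INTACT mice. INTACT isolates tagged nuclei of a chosen cell type on beads; the promoter behind the hepatocyte tag is not given in the sources used here. On the FPC diet, a fructose, palmitate and cholesterol diet, mice were fed for 20 weeks and gave 3 livers with advanced and 4 with mild steatohepatitis, beside 4 livers from low-fat controls kept as long. On the CDAHFD, a high-fat diet that lacks choline and has defined amino acids, mice were fed for 7 weeks and gave 3 advanced and 4 mild livers, beside 4 low-fat controls. The submitters split mild from advanced by histology: both had fat and inflammation, and fibrosis was significant in advanced livers. Diet and feeding time differ together, so they cannot be told apart between the arms. All groups, controls included, carry the HEP-INTACT tag, and strain and age are not given in the labels.

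Complex I takes electrons from NADH and complex II from succinate. Both pass them to ubiquinone, from which complex III and then complex IV carry them to oxygen. Complexes I, III and IV pump protons, and complex V lets the protons flow back to make ATP. In hepatocytes this machinery burns the products of fatty acid oxidation, and changes in mitochondrial respiration are a known feature of fatty liver disease. An accessible region near a gene is a sign of open regulatory DNA and is not a measure of that gene's mRNA or protein.

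The start-site regions of 6 members illustrate what was measured. The 250 bases before the start are shown, with the bases inside the 200-base peak over the start in capitals, from RefSeq on GRCm38.p6, which is the mm10 build of the data. The peak over each of the first 3 start sites gained accessibility in advanced livers of both diets. They are chr9:108936398-108936647 on the plus strand (Uqcrc1, a core subunit of complex III), chr11:96075632-96075881 on the minus strand (Atp5g1, a gene for the c subunit of the ATP synthase rotor) and chr7:30183921-30184170 on the plus strand (Cox7a1, the heart and muscle form of a complex IV subunit).
Uqcrc1: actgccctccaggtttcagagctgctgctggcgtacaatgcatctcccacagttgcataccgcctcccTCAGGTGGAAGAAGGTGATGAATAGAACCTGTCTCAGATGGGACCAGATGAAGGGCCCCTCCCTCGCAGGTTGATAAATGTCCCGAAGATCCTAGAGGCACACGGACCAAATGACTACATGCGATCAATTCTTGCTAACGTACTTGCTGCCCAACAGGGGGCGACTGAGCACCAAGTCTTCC
Atp5g1: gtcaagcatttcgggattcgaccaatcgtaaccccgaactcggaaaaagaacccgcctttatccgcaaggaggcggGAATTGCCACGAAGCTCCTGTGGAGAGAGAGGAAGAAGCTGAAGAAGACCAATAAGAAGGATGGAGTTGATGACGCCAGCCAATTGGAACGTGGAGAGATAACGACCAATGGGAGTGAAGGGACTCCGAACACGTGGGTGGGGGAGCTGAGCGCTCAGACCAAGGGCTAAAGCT
Cox7a1: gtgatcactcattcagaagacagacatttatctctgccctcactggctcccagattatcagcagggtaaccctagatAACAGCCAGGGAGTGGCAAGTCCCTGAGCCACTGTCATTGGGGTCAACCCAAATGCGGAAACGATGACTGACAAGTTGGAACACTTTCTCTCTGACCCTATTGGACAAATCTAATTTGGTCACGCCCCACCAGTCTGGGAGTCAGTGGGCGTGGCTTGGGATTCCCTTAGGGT

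The peak over each of the next 3 lost accessibility in advanced FPC livers. They are chr6:39592315-39592564 on the plus strand (Ndufb2, an accessory subunit of complex I), chr13:86046796-86047045 on the minus strand (Cox7c, a complex IV subunit) and chr6:11907451-11907700 on the minus strand (Ndufa4).
Ndufb2: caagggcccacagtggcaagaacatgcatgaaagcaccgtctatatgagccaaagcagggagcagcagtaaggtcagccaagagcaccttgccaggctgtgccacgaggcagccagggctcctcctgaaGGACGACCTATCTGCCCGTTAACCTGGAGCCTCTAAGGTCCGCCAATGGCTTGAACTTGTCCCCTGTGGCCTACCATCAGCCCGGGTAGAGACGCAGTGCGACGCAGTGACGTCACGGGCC
Cox7c: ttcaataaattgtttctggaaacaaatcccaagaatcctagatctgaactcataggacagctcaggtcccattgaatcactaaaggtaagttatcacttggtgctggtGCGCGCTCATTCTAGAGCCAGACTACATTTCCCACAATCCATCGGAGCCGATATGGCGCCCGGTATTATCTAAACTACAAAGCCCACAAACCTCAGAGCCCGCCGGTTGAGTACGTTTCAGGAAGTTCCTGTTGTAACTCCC
Ndufa4: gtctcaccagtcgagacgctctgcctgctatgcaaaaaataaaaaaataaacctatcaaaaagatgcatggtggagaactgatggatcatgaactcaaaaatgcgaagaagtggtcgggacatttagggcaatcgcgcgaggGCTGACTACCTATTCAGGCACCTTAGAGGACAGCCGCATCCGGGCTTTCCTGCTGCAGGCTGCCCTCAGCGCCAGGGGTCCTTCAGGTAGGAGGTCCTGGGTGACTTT

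Library depth, in units of 1000000 counts, was 3.79 to 6.04 in control, 5.02 to 5.96 in mild and 5.97 to 7.14 in advanced FPC livers. On CDAHFD it was 5.95 to 8.38 in control, 6.15 to 9.33 in mild and 6.08 to 9.24 in advanced livers. Marker counts stand beside all genes, of which 30.1% gained and 30.9% lost accessibility in advanced FPC livers. In advanced CDAHFD livers these shares were 28.9% and 29.5%. All 10 hepatocyte marker genes had a peak. Of these markers, 8 lost accessibility in advanced FPC livers and 7 in advanced CDAHFD livers, while none gained it. Their summed level was 1498 to 1794 CPM (counts scaled to 1000000 a library) in advanced and 1945 to 2190 in control FPC livers, and 1673 to 1803 in advanced and 1901 to 2212 in control CDAHFD livers. Of 10 cholangiocyte markers 9 had a peak (not Cftr), with 8 rising on FPC and 7 on CDAHFD, while Aqp1 fell on both. Their sum was 366 to 454 CPM in advanced and 241 to 269 in control FPC livers, and 323 to 348 in advanced and 235 to 274 in control CDAHFD livers. Other lists had fewer peaks. The stellate cell list had a peak for 2 of 10 markers, of which 1 rose on each diet, and the macrophage list for 3 of 10, of which 2 rose on FPC and 1 on CDAHFD. The lymphocyte list had a peak for 3 of 10, of which 2 fell on FPC and 1 rose and 2 fell on CDAHFD, and the endothelial list for 7 of 10, of which 3 fell on FPC and 4 on CDAHFD. Markers with no peak included Lrat, Des and Pdgfrb of stellate cells, Clec4f of macrophages, and Cd3e of lymphocytes. The part of these marker shifts in the results below was not tested. In bulk nuclei, fewer cells of a type and less signal per cell cannot be told apart.

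Respiratory genes moved in both directions in steatohepatitis, and by small amounts. Counts were summed over all peaks of a gene, scaled to CPM and tested with edgeR over all 15686 genes, and a gene was called at an adjusted p under 0.05. In advanced against control FPC livers 19 of 75 members gained and 22 lost accessibility, whereas 30.1% of all genes gained and 30.9% lost it. In advanced against control CDAHFD livers 17 gained and 20 lost it, against 28.9% and 29.5% of all genes. In mild against control livers 12 gained and 17 lost it on FPC, where 19.6% of all genes rose and 20.8% fell. On CDAHFD, 14 gained and 12 lost it in mild livers, where 23% of all genes rose and 22.2% fell. The members' shares lie near these backgrounds, so the counts are no result about respiratory genes as a set. With scaling factors computed from all peaks, a choice made after seeing the data that puts the median of all genes at 0.10 on FPC and 0.05 on CDAHFD (log2), 24 members gained and 16 lost accessibility in advanced FPC livers, and 21 and 16 in advanced CDAHFD livers; all genes then split 6064 to 3648 and 5246 to 3782.

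The median log2 fold change of the 75 members was 0.02 in advanced livers of either diet, against 0.0019 for all genes on FPC and -0.0097 on CDAHFD. In mild livers it was 0.02 on FPC and -0.00056 on CDAHFD, against 0.00039 and -0.0038 for all genes. The members' changes ran over -0.96 to 0.70 in advanced FPC livers and -0.67 to 0.69 in advanced CDAHFD livers. No member passed a 2-fold change in any of these 4 comparisons, while 10.4% of all genes did in advanced FPC livers and 10.3% in advanced CDAHFD livers. The advanced arms have separate mice and separate controls. Between them, 14 members (18.7%) rose in both and 16 (21.3%) fell in both, beside 22.2% and 23.1% of all genes. None was called in opposite directions, as were 0.542% of all genes. Not called in either were 27 (36%), against 26.4% of all genes, and 24 (32%) were called in none of the 4 comparisons with control, against 21.1%. Neither share of members called in the same direction in both advanced arms lies above that of all genes.

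**Figure D1:**
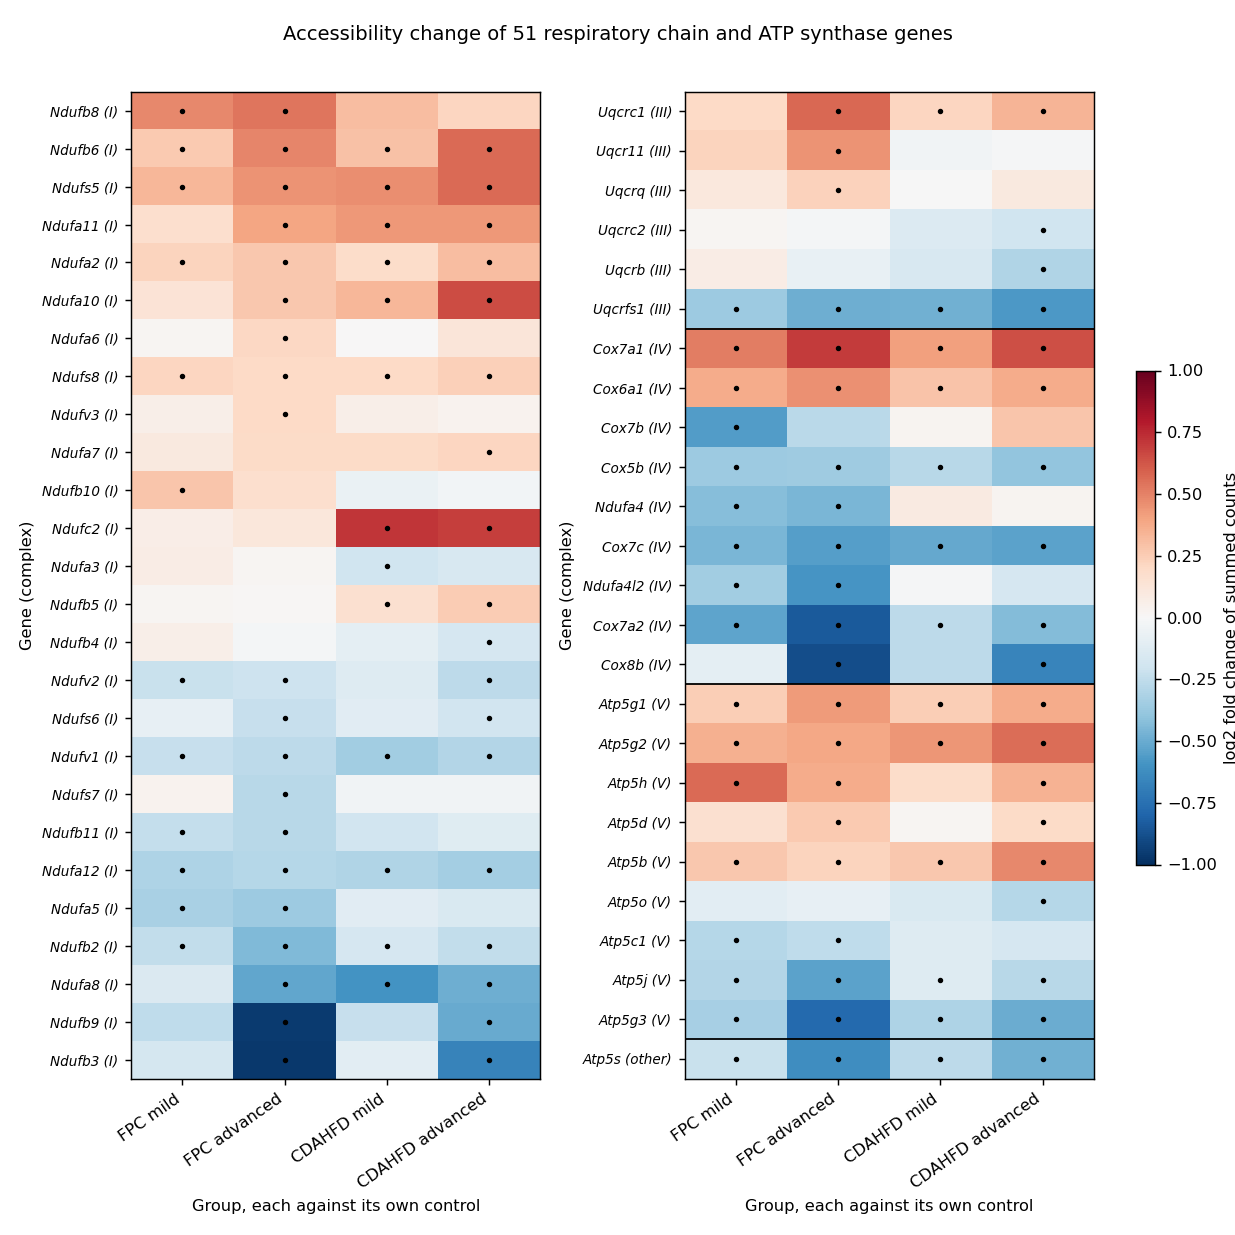
Colour shows the log2 fold change of summed counts for the 51 members called in at least 1 comparison (rows, grouped by complex; the 24 others are not drawn) in the advanced and mild against control comparisons of both diets (columns), on the scale of the colour bar. Black dots mark calls, and complexes I, III, IV and V each hold members that gained and members that lost accessibility.

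Complex I, the largest complex and the entry point of electrons from NADH, had 9 rising and 11 falling members of 34 in advanced FPC livers and 9 rising and 9 falling in advanced CDAHFD livers. Ndufb6, an accessory subunit of its membrane arm, rose on both diets. Its level was 29.9, 25.8, 30.8 and 27.3 CPM in control, 33.6, 36.9, 33.9 and 32.9 in mild and 41.5, 38.4 and 40.6 in advanced FPC livers. On CDAHFD it was 30.3, 26.3, 30.3 and 28.0 CPM in control, 35.1, 35.1, 36.9 and 34.2 in mild and 40.7, 43.3 and 44.4 in advanced livers. The 3 stages do not overlap on either diet, and mild livers lie between the other stages. The log2 fold change of advanced over control was 0.49 ± 0.08 (SE; adjusted p = 7.74e-06) on FPC and 0.57 ± 0.07 (adjusted p = 2.5e-07) on CDAHFD.

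Ndufa10, another accessory subunit, rose on both diets, and on CDAHFD it stood at 26.5, 27.1, 28.6 and 27.3 CPM in control, 33.0, 37.6, 31.8 and 35.6 in mild and 41.9, 46.4 and 41.0 in advanced livers. On FPC it stood at 27.9, 29.7, 31.2 and 31.7 CPM in control, 35.6, 31.2, 34.3 and 31.9 in mild and 34.6, 38.7 and 35.6 in advanced livers. All advanced livers lay above all controls on both diets. The changes were 0.65 ± 0.07 on CDAHFD (adjusted p = 6.92e-08) and 0.27 ± 0.08 on FPC (adjusted p = 0.00567). Ndufs5 and Ndufa2, both accessory subunits, rose as well. Ndufs5 averaged 24.0 ± 2.92 CPM in advanced and 17.5 ± 2.97 in control FPC livers (SD, n = 3 and 4), and 28.1 ± 0.529 in advanced and 18.9 ± 1.24 in control CDAHFD livers; the FPC call was lost without advanced replicate 2. Ndufa2 changed by 0.27 ± 0.07 on FPC and 0.31 ± 0.07 on CDAHFD. Ndufc2, an accessory subunit, rose on CDAHFD, at 13 ± 0.682 CPM in advanced and 8.04 ± 0.764 in control livers (0.69 ± 0.13, adjusted p = 8.25e-05), against 10.3 ± 1.40 in advanced and 9.52 ± 1.38 in control FPC livers (0.12 ± 0.14, adjusted p = 0.5). The iron-sulfur core subunit gene Ndufs8 rose in all 4 comparisons with control, by 0.20 and 0.22 in advanced and mild FPC livers and by 0.24 and 0.20 in advanced and mild CDAHFD livers.

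Among falling complex I genes, Ndufb3 and Ndufb9, both accessory membrane-arm subunits, had the lowest values, and neither has a peak within 1 kb of its start. Ndufb3 averaged 28.8 ± 3.99 CPM in advanced and 55.9 ± 3.06 in control FPC livers (-0.96 ± 0.12, adjusted p = 3.99e-07), and 31.7 ± 2.04 in advanced and 50.0 ± 10.5 in control CDAHFD livers (-0.67 ± 0.11, adjusted p = 2.52e-05). Ndufb9 averaged 18.3 ± 2.98 CPM in advanced and 35.8 ± 7.28 in control FPC livers (-0.96 ± 0.14), and 20.9 ± 2.67 and 29.6 ± 2.15 in advanced and control CDAHFD livers (-0.51 ± 0.13). These sums rest on distal peaks alone. Ndufb2 fell by 0.44 on FPC and by 0.25 on CDAHFD. Ndufv1, whose protein binds NADH and flavin at the head of the complex, fell by 0.26 on FPC (adjusted p = 0.00152) and by 0.29 on CDAHFD (adjusted p = 0.000313). Ndufa12, an accessory subunit, fell by 0.29 and 0.34. Ndufa6 had the highest summed level among the complex I members, with 101 ± 6.49 CPM in advanced and 87.6 ± 6.94 in control FPC livers (0.21 ± 0.08, adjusted p = 0.021) and no call on CDAHFD (0.12 ± 0.07).

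Complex II, succinate dehydrogenase, which is also an enzyme of the citric acid cycle, had no called member in any of the 4 comparisons with control (edgeR; 0 at an unadjusted p under 0.05, and 0 with DESeq2). Sdhb, the iron-sulfur subunit, had 70.3, 74.1 and 74.0 CPM in advanced and 74.8, 73.3, 78.1 and 74.6 in control FPC livers, with mild livers at 71.0 to 75.9. On CDAHFD it had 72.9, 71.7 and 75.6 CPM in advanced and 70.3, 74.9, 81.4 and 83.4 in control livers. The groups overlapped on both diets, with changes of -0.05 ± 0.06 and -0.08 ± 0.06. Sdha, the flavoprotein, changed by -0.09 ± 0.19 on FPC and -0.14 ± 0.17 on CDAHFD. The membrane anchors Sdhc and Sdhd changed by 0.17 ± 0.12 and -0.18 ± 0.09 on FPC and by 0.14 ± 0.11 and -0.13 ± 0.08 on CDAHFD. A missed threshold in 3 against 4 livers does not show that these levels are equal. All these values are sums over both start-site and distal peaks. Summed alone, distal peaks of Sdhb and Sdhd were called by edgeR in advanced livers. Sdhb changed by -0.48 (adjusted p = 0.0011) on FPC and -0.27 (adjusted p = 0.039) on CDAHFD. Sdhd changed by -0.69 (adjusted p = 0.00099) and -0.42 (adjusted p = 0.022). Distal sums of Sdha and Sdhc were not called, at 0.40 and 0.14 on FPC and -0.02 and 0.34 on CDAHFD.

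Complex III hands electrons to cytochrome c. It had 3 rising and 1 falling member of 8 in advanced FPC livers, and 1 rising and 3 falling in advanced CDAHFD livers. Uqcrc1, its core subunit 1 gene, had 21.9, 20.1, 23.3 and 26 CPM in control, 29.2, 24.1, 26.3 and 25.7 in mild and 32.0, 34.4 and 35.6 in advanced FPC livers. The CDAHFD livers had 29.7, 26.8, 27.3 and 25.9 CPM in control, 30.4, 30.2, 32.7 and 34.1 in mild and 33.7, 34.7 and 35.7 in advanced livers. Advanced livers lay above controls on both diets, by 0.57 ± 0.09 on FPC (adjusted p = 5.77e-06) and 0.34 ± 0.08 on CDAHFD (adjusted p = 0.000855).

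Uqcrfs1, the gene of the Rieske iron-sulfur protein that carries out the electron transfer from ubiquinol, fell on both diets. It stood at 73.8, 84.3, 73.4 and 69.6 CPM in control, 59.2, 58.7, 59.0 and 56.8 in mild and 58.4, 50.5 and 52.3 in advanced FPC livers. On CDAHFD it stood at 77.6, 77.4, 79.4 and 77.3 CPM in control, 52.6, 56.4, 54.2 and 60.1 in mild and 50.9, 53.7 and 53.0 in advanced livers. Every mild and advanced liver lay below every control of its diet, with changes in advanced livers of -0.49 ± 0.07 (adjusted p = 1.09e-06) on FPC and -0.57 ± 0.06 (adjusted p = 4.59e-08) on CDAHFD. Uqcrq, a small subunit with the highest summed level in complex III, had 189, 197 and 181 CPM in advanced and 157, 169.5, 146 and 175 in control FPC livers (0.23 ± 0.07, adjusted p = 0.00687). It was not called on CDAHFD, with 178 ± 14.1 CPM in advanced and 166 ± 13 in control livers. Uqcrc2, the other core subunit, fell by 0.20 in advanced CDAHFD livers (adjusted p = 0.027) and changed by -0.02 ± 0.08 on FPC. The remaining calls were Uqcr11, a small subunit, which rose by 0.45 on FPC, and Uqcrb, a ubiquinone-binding subunit, which fell by 0.30 on CDAHFD.

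Complex IV, cytochrome c oxidase, reduces oxygen. It had 2 rising and 6 falling members of 14 in advanced FPC livers and 2 rising and 4 falling in advanced CDAHFD livers. The sum over its members was 499 to 529 CPM in control, 427 to 457 in mild and 418 to 438 in advanced FPC livers. On CDAHFD it was 473 to 517 CPM in control, 454 to 487 in mild and 442 to 461 in advanced livers. Advanced and control ranges did not overlap for this complex on either diet. The complex I sum was 1252 to 1312 CPM in advanced and 1315 to 1354 in control FPC livers, also without overlap, and 1292 to 1373 and 1292 to 1338 CPM in advanced and control CDAHFD livers, which overlapped. The complex V sum was 790 to 824 CPM in advanced and 800.0 to 834 in control FPC livers, and 813 to 849 and 769 to 817 CPM in advanced and control CDAHFD livers, with overlap on both diets. These sums carry no test and use the scaling factors of gene sums. Scaling factors of all peaks raise advanced over control changes of members' peaks by a median of 0.10 (log2) on FPC and 0.06 on CDAHFD. The gaps for complex I on FPC and complex IV on CDAHFD are narrower than that shift. These 2 separations may therefore not hold under the other scaling, with which the sums were not recomputed.

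Complex IV has tissue forms of some subunits, and the summed accessibility of 2 forms of subunit 7a went apart. The sums are not of like peaks: Cox7a1 has 1 start-site peak only, while Cox7a2 has 2 start-site and 2 distal peaks. At start sites alone Cox7a2 fell by 0.62 on FPC (edgeR, adjusted p = 1.51e-07) in advanced livers. On CDAHFD its start-site change was -0.16 (adjusted p = 0.062), which was not called. Cox7a2, the form of subunit 7a found in liver, had 82.3, 86.3, 81.1 and 88.4 CPM in control, 53.6, 58.2, 64.7 and 57.0 in mild and 46.5, 48.9 and 46.0 in advanced FPC livers. CDAHFD livers had 73.4, 78.1, 68.4 and 79.6 CPM in control, 65.0, 58.7, 68.5 and 57.3 in mild and 56.4, 56.1 and 53.4 in advanced livers. Advanced livers lay below mild and control livers on both diets. The log2 fold change was -0.84 ± 0.07 on FPC (adjusted p = 1.75e-09) and -0.43 ± 0.07 on CDAHFD (adjusted p = 1.2e-05). Cox7a1, the muscle form, rose on both diets. It averaged 22.5 ± 1.80 CPM in advanced and 14 ± 1.54 in control FPC livers (0.70 ± 0.12, adjusted p = 1.42e-05), and 21.2 ± 2.63 in advanced and 13.5 ± 0.831 in control CDAHFD livers (0.64 ± 0.11, adjusted p = 1.68e-05). The form of subunit 6a found in liver, Cox6a1, rose by 0.45 ± 0.10 and 0.37 ± 0.09, so liver forms did not share a direction. Cox8b, a muscle form of subunit 8 with no start-site peak, fell by 0.89 on FPC (adjusted p = 0.00015) and by 0.66 on CDAHFD (adjusted p = 0.00194).

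Other complex IV members fell. Cox5b, an outer subunit, averaged 51.1 ± 3.14 CPM in advanced and 65.3 ± 6.62 in control FPC livers, and 51.0 ± 2.06 in advanced and 66.9 ± 5.04 in control CDAHFD livers. Cox7c averaged 28.8 ± 0.882 CPM in advanced and 42.3 ± 2.65 in control FPC livers, and 30.4 ± 2.84 in advanced and 44.5 ± 6.29 in control CDAHFD livers. Both also fell in mild livers of both diets. Ndufa4l2, a gene known to respond to hypoxia, has no start-site peak, and its sum rests on 4 distal peaks. It fell by 0.59 on FPC (adjusted p = 2.73e-05) and changed by -0.17 ± 0.09 on CDAHFD (adjusted p = 0.132). Cox7a2l, whose protein helps assemble respiratory supercomplexes, had the highest summed level in complex IV and was not called, with 70.1 ± 4.91 CPM in advanced and 77.7 ± 3.88 in control FPC livers and 75 ± 3.47 and 72.5 ± 6.56 CPM in advanced and control CDAHFD livers.

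Complex V had 5 rising and 3 falling members of 14 in advanced livers of either diet. Atp5g1, Atp5g2 and Atp5g3 encode the same mature c subunit of the rotor ring, and their summed accessibility split. The sums are not of like peaks: Atp5g1 and Atp5g2 have start-site peaks only, while Atp5g3 also has 5 distal peaks. At start sites alone Atp5g3 did not fall. It changed there by -0.02 on FPC (edgeR, adjusted p = 0.88) and by 0.23 on CDAHFD (adjusted p = 0.0082) in advanced livers. Atp5g1 rose, with 82.0, 73.3, 86.3 and 74.8 CPM in control, 95.7, 94.6, 97.6 and 89.8 in mild and 100.2, 111 and 108 in advanced FPC livers. The CDAHFD values were 73.7, 73.4, 86.2 and 77.0 CPM in control, 89.8, 92.0, 91.5 and 95.6 in mild and 94.7, 108 and 99.2 in advanced livers. All advanced livers exceeded all controls, by 0.42 ± 0.07 on FPC (adjusted p = 1.04e-05) and 0.37 ± 0.07 on CDAHFD (adjusted p = 3.31e-05). Atp5g2 rose by 0.38 ± 0.10 on FPC and 0.56 ± 0.09 on CDAHFD.

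Atp5g3 fell instead, with 97.5, 95.6, 104.8 and 93.0 CPM in control, 75.4, 69.7, 83.8 and 83.0 in mild and 62.1, 56.6 and 52.7 in advanced FPC livers. CDAHFD livers gave 90.6, 91.9, 81.3 and 92.0 CPM in control, 72.8, 70.0, 62.7 and 79.5 in mild and 60.2, 62.4 and 66.6 in advanced livers. The stages separated on FPC, while advanced and mild livers overlapped on CDAHFD. The changes in advanced livers were -0.78 ± 0.08 (adjusted p = 2.35e-08) and -0.50 ± 0.08 (adjusted p = 7.94e-06).

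Atp5b, the catalytic beta subunit gene, rose, with 72.8, 73.3, 73.6 and 73.8 CPM in control, 91.1, 89.2, 86.7 and 87.6 in mild and 84.6, 92.4 and 79.1 in advanced FPC livers. In the CDAHFD arm the values were 62.3, 61.8, 67.9 and 69.5 CPM in control, 77.8, 75.3, 85.2 and 78.1 in mild and 88.6, 94.2 and 91.4 in advanced livers. Every mild and advanced liver exceeded every control, and the advanced change was 0.22 ± 0.06 on FPC (adjusted p = 0.00357) and 0.48 ± 0.06 on CDAHFD (adjusted p = 1.95e-07). Atp5d, the delta subunit of the central stalk, rose by 0.26 ± 0.07 on FPC and 0.19 ± 0.07 on CDAHFD. Atp5h, a peripheral stalk subunit, rose by 0.37 ± 0.13 on FPC and 0.35 ± 0.12 on CDAHFD, from 6 peaks at or near the far end of the gene, 6054 to 7069 bases from its start. The third falling member was Atp5c1, the gamma subunit of the central stalk, on FPC (-0.25) and Atp5o, a peripheral stalk subunit, on CDAHFD (-0.29).

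Atp5j, coupling factor 6 of the peripheral stalk, fell. It had 163, 183, 173 and 171 CPM in control, 145, 141, 142 and 134 in mild and 119, 115 and 122 in advanced FPC livers. On CDAHFD it had 161, 159.7, 155 and 157 CPM in control, 148, 139, 146 and 146 in mild and 134, 124 and 132 in advanced livers. The stages did not overlap on either diet, and the advanced changes were -0.54 ± 0.05 (adjusted p = 3.57e-09) and -0.28 ± 0.05 (adjusted p = 2.49e-05). Atp5s fell too, with 85.3, 87.1, 87.3 and 94.6 CPM in control, 72.8, 79.3, 72.7 and 78.7 in mild and 62.5, 54.5 and 55.5 in advanced FPC livers. In the CDAHFD arm it had 75.3, 73.7, 82.3 and 76.8 CPM in control, 68.2, 64.2, 63.9 and 60.7 in mild and 59.1, 52.0 and 54.3 in advanced livers. Its stages also kept apart, and the advanced changes were -0.62 ± 0.07 (adjusted p = 3.13e-08) and -0.48 ± 0.06 (adjusted p = 9.25e-07).

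**Figure D2:**
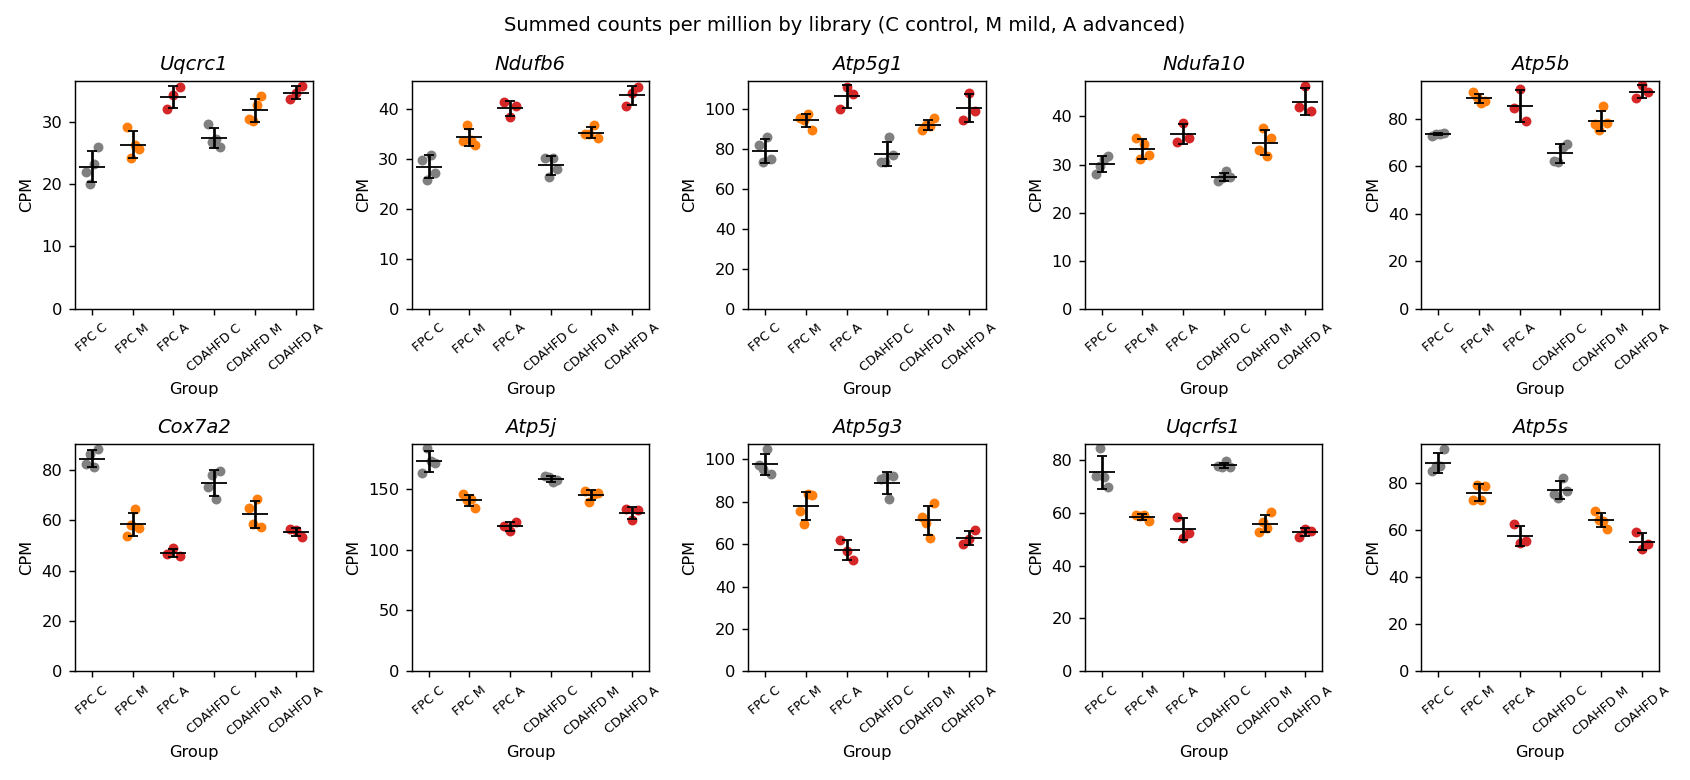
Summed CPM by library for 5 members that rose (upper row) and 5 that fell (lower row), with group means and SD bars; C is control, M mild and A advanced. Cox7a2 stands at 81.1 to 88.4 in control, 53.6 to 64.7 in mild and 46.0 to 48.9 in advanced FPC livers.

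Many of these changes were also called in mild livers. On FPC, the leading rises in mild livers were Atp5h (116 CPM in mild against 78.5 in control livers, log2 0.57), Atp5b (0.27), Cox7a1 (0.51) and Cox6a1 (0.37), and the leading falls were Cox7a2 (-0.53), Atp5j (-0.30), Uqcrfs1 (-0.36) and Cox5b (-0.36). On CDAHFD, the leading rises were Ndufc2 (13.2 CPM in mild against 8.04 in control livers, log2 0.71), Atp5g2 (0.44), Atp5b (0.27) and Ndufa10 (0.34), and the leading falls were Uqcrfs1 (-0.48), Ndufv1 (-0.35), Cox7c (-0.51) and Atp5s (-0.26). Cox6a1, Ndufs8, Atp5b, Atp5g1, Atp5g2, Cox7a1, Ndufb6, Ndufa2 and Ndufs5 rose in all 4 comparisons with control, and Cox5b, Cox7c, Cox7a2, Ndufb2, Ndufv1, Ndufa12, Uqcrfs1, Atp5g3, Atp5j and Atp5s fell in all 4. These 9 and 10 genes are 12% and 13.3% of the members, beside 11.5% of all genes in either direction. Mild and advanced livers of 1 diet share their controls.

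Advanced livers were also set against mild livers of the same diet. On FPC 3 members rose and 9 fell, against 15% and 16.5% of all genes. The risers were Uqcrc1 (0.37 ± 0.08, adjusted p = 0.00129), Ndufb6 (0.22, adjusted p = 0.0192) and Atp5g1 (0.18, adjusted p = 0.0429); the leading falls were Ndufb3 (-0.79), Atp5s (-0.40), Atp5g3 (-0.45) and Ndufb9 (-0.71). On CDAHFD 3 members rose and 3 fell, against 9.15% and 8.36% of all genes. The risers were Ndufa10 (0.31), Ndufb6 (0.28) and Atp5b (0.21), and Ndufb3 (-0.56), Atp5s (-0.21) and Atp5j (-0.15) fell. Some of these calls rested on single libraries. Leaving out 1 library ended the FPC call of Atp5g1 in 6 of 7 cases and of Ndufb6 in 3 of 7, and the CDAHFD call of Atp5j in 5 of 7, of Atp5s in 3 of 7 and of Atp5b in 1 of 7. The FPC count of rising members was 1 without advanced replicate 3 or without mild replicate 4, and the CDAHFD count of falling members was 1 without advanced replicate 2 or without advanced replicate 3.

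The diets were compared by testing the difference between their changes from control. For advanced livers no member was called higher on FPC and 4 were called lower, against 1.8% and 3.26% of all genes. By edgeR at an unadjusted p under 0.05, 1 member was higher, and DESeq2 called 0 higher. The members called lower were Cox7a2 (-0.41 ± 0.10, adjusted p = 0.0221), Atp5j (-0.26 ± 0.07, adjusted p = 0.0321), Ndufa4 (-0.48 ± 0.13, adjusted p = 0.0329) and Ndufa10 (-0.38 ± 0.11, adjusted p = 0.0426). Cox7a2 and Atp5j fell further on FPC, and Ndufa10 rose less there. Ndufa4 had 23.7, 28.1 and 26.8 CPM in advanced and 32.4, 35.2, 36.0 and 40.8 in control FPC livers, against 28.8 to 32.7 CPM in advanced and 29.7 to 31.8 in control CDAHFD livers. It thus separated the groups on FPC (-0.46 ± 0.10, adjusted p = 0.00026), and they overlapped on CDAHFD (0.02 ± 0.09, adjusted p = 0.831). For mild livers no member was called higher on FPC and 2 were called lower, against 2.39% and 3.23% of all genes; at an unadjusted p under 0.05, 4 were higher, and DESeq2 called 0 higher. The members called lower were Ndufa4 (-0.52 ± 0.12, adjusted p = 0.0138) and Ndufc2 (-0.65 ± 0.19, adjusted p = 0.0399). In single-library leave-outs, the Ndufa4 call for mild livers held in 16 of 16, while those for advanced livers were lost in 2 of 14 (Cox7a2), 7 of 14 (Atp5j), 7 of 14 (Ndufa4) and 12 of 14 (Ndufa10), and that of Ndufc2 in 12 of 16. Without CDAHFD advanced replicate 1, 0 members were called for advanced livers. With scaling factors of all peaks, chosen after seeing the data, 0 members were called for advanced livers, while 382 genes in all were higher and 294 lower, against 283 and 511 before. For mild livers Ndufa4 was then still called lower (-0.50) and Ndufc2 was not.

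Low-fat controls of the arms, at 20 and 7 weeks, were compared with each other. In FPC against CDAHFD controls 1 member was higher and 3 were lower, against 4.37% and 1.98% of all genes. Atp5s was higher (0.20, adjusted p = 0.0478), and the members called lower included Ndufa3 (-0.29, adjusted p = 0.033) and Uqcrc2 (-0.26, adjusted p = 0.0451). Leaving out single libraries ended the call of Atp5s in 7 of 8 cases, of Ndufa3 in 4 and of Uqcrc2 in 6.

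Peaks over start sites and peaks farther out moved in different directions. The 75 members have 192 peaks, of which 108 lie within 1 kb of a start and 84 lie farther out, here called distal. The 84 distal peaks belong to 31 members, with 7 at Uqcr10 and 6 at Atp5h, and 14 pairs of the 192 peaks overlap. Peaks of 1 gene are thus not independent, and counts of peaks are not counts of genes. Single peaks were tested with scaling factors computed on all 68827 peaks. In advanced against control FPC livers 42 of 108 start-site peaks gained and 12 lost accessibility, against 38.9% and 12.1% of all start-site peaks. Distal peaks went the other way, with 13 of 84 gaining and 41 losing, against 23.9% and 32.3% of all distal peaks. In advanced against control CDAHFD livers 38 start-site peaks gained and 11 lost, against 31.5% and 13.7%, and 14 distal peaks gained and 33 lost, against 25.7% and 32.7%. The members' start-site shares thus lie near the background, while 48.8% of their distal peaks fell on FPC and 39.3% on CDAHFD, above it; no test of that excess was made. The median change of the members' distal peaks was -0.39 on FPC and -0.24 on CDAHFD, beside -0.13 and -0.11 for all distal peaks. For start-site peaks it was 0.21 and 0.11, beside 0.19 and 0.11. The split depends on the scaling, and the factors of gene sums were tried as an alternative chosen after seeing the data. With them, 27 start-site peaks gained and 19 lost on FPC (all start-site peaks 29.3% and 17.7%) and 33 gained and 17 lost on CDAHFD (27% and 18%), while 9 distal peaks gained and 45 lost on FPC (20.6% and 37.9%) and 12 gained and 36 lost on CDAHFD (23.8% and 36.3%). The count of 11 falling start-site peaks on CDAHFD was 6 without advanced replicate 1.

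**Figure D3:**
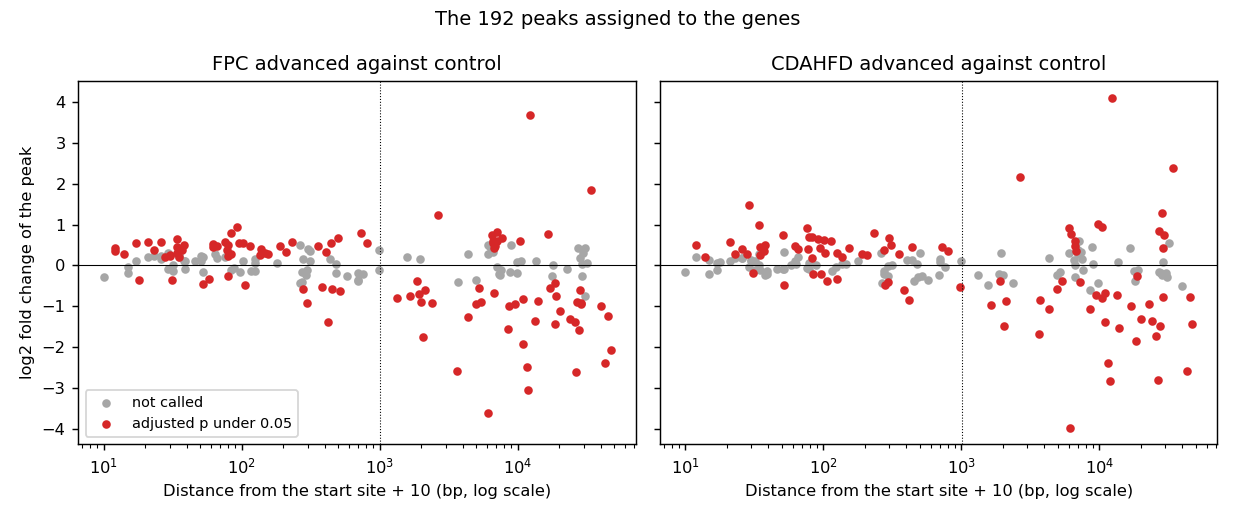
Each point is 1 of the members' 192 peaks, placed by distance from the transcription start and by its log2 fold change in advanced over control livers, in 1 panel per diet. Points near the start crowd just above 0, and the strongest falls lie farther out.

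Counts by complex stand beside all start-site peaks, of which 38.9% gained and 12.1% lost accessibility on FPC, and 31.5% and 13.7% on CDAHFD. For all distal peaks the shares were 23.9% and 32.3% on FPC and 25.7% and 32.7% on CDAHFD. No test by complex was made. In complex I, 19 of 43 start-site peaks gained and 2 lost accessibility in advanced livers of either diet. Of its 33 distal peaks, 5 gained and 17 lost it on FPC, and 5 gained and 15 lost it on CDAHFD. In complex IV, 5 of 16 start-site peaks gained and 5 lost on FPC, and 4 gained and 3 lost on CDAHFD. Of its 14 distal peaks, 1 gained and 10 lost on FPC (median -0.73), and 1 gained and 6 lost on CDAHFD (median -0.34). In complex V, 9 of 27 start-site peaks gained and 2 lost on FPC and 11 gained and 2 lost on CDAHFD, and of 19 distal peaks 4 gained and 9 lost on FPC and 4 gained and 7 lost on CDAHFD. In complex III, 6 of 16 start-site peaks gained and 1 lost on FPC and 4 gained and 2 lost on CDAHFD, and of 10 distal peaks 2 gained and 2 lost on FPC and 4 gained and 4 lost on CDAHFD. Each complex II gene has 1 start-site peak, and on CDAHFD none of the 4 was called. On FPC the peaks of Sdhb, Sdhc and Sdhd were called as gains (0.22, 0.29 and 0.26), but with the scaling factors of gene sums none was, at 0.12, 0.19 and 0.16. Of 8 distal peaks of complex II, 1 gained and 3 lost on FPC and 0 gained and 1 lost on CDAHFD. Start-site counts of the other complexes also moved with the scaling factors of gene sums. FPC gave 13 gains and 5 losses in I, 6 and 2 in III, 2 and 5 in IV and 6 and 5 in V. CDAHFD gave 17 and 3 in I, 3 and 3 in III, 4 and 4 in IV and 9 and 5 in V. Distal losses in complexes I to V were 19, 3, 3, 11 and 9 on FPC and 16, 3, 4, 6 and 7 on CDAHFD. Distal gains were 5, 0, 1, 1 and 2 on FPC and 5, 0, 3, 1 and 3 on CDAHFD.

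The share of all counts in start-site peaks moved with stage in the whole data. It was 40.6 to 42.1% in control, 42.5 to 44.4% in mild and 45.8 to 46.8% in advanced FPC livers. On CDAHFD it was 40.6 to 41.7% in control, 42.5 to 44.6% in mild and 43.9 to 46.2% in advanced livers. Set against the counts of their own class, the members' start-site peaks held 0.574% ± 0.0127 of start-site counts in advanced and 0.578% ± 0.00279 in control FPC livers, and 0.592% ± 0.00631 in advanced and 0.587% ± 0.00885 in control CDAHFD livers (SD, n = 3 and 4). These differences are within the spread between libraries. Their distal peaks held 0.160% ± 0.00679 of distal counts in advanced and 0.189% ± 0.00653 in control FPC livers, and 0.165% ± 0.00794 in advanced and 0.184% ± 0.00689 in control CDAHFD livers. The distal ranges did not overlap between advanced and control livers on either diet. Which part the shift of the whole data has in the single-peak changes was not tested.

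**Figure D4:**
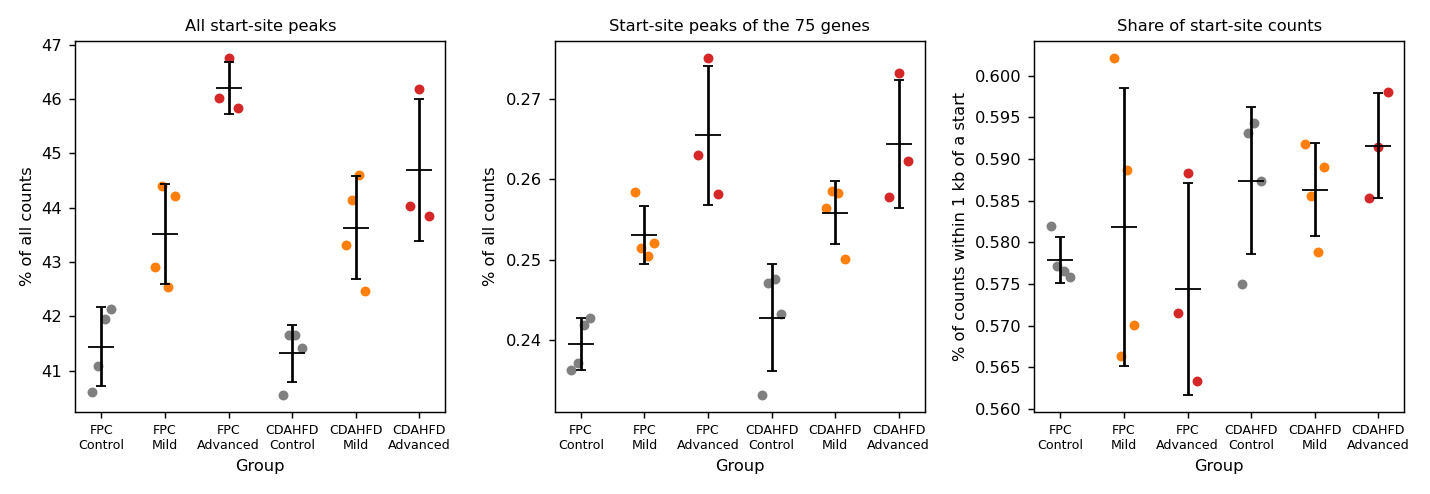
Share of counts by library and stage for each diet, as percent of the counts each panel names. The share of all counts in start-site peaks is 40.6 to 42.1% in control and 45.8 to 46.8% in advanced FPC livers, whereas the members' part of start-site counts (right) is 0.576 to 0.582% in control and 0.563 to 0.588% in advanced FPC livers.

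Of the 75 members, 26 have both classes of peak. The summed start-site change was above the summed distal change in 23 of them (88.5%) in advanced FPC livers and in 19 (73.1%) in advanced CDAHFD livers. Of the 7104 genes in the data with both classes, it was above in 68.1% and 61%. The members' median start-site change was 0.11 on FPC and 0.06 on CDAHFD, near the 0.08 and 0.04 of all such genes. Their median distal change was -0.41 and -0.46, beside -0.21 and -0.12. These differences carry no test. In several genes the 2 classes differed in size or sign. Atp5g3 changed by -0.02 ± 0.08 at its start-site peaks and by -1.54 ± 0.14 at its distal peaks in advanced FPC livers, and by 0.23 and -1.27 on CDAHFD. Ndufv1 changed by 0.04 ± 0.07 and -0.85 ± 0.13 at start-site and distal peaks on CDAHFD. Ndufa12 changed by -0.05 at its start and by -4.03 at its distal peak on CDAHFD. The CDAHFD fall of Cox7a2 was -0.16 at the start, which did not pass the threshold, and -1.06 farther out. The rise of Ndufb6 went the same way: 0.10 at the start, not called, and 3.59 at the distal peak on FPC. On CDAHFD both were called, at 0.21 and 4.06. Uqcrc1 differed in that its start-site peaks carried the rise, with distal changes of 0.01 on FPC and -0.85 on CDAHFD.

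**Figure D5:**
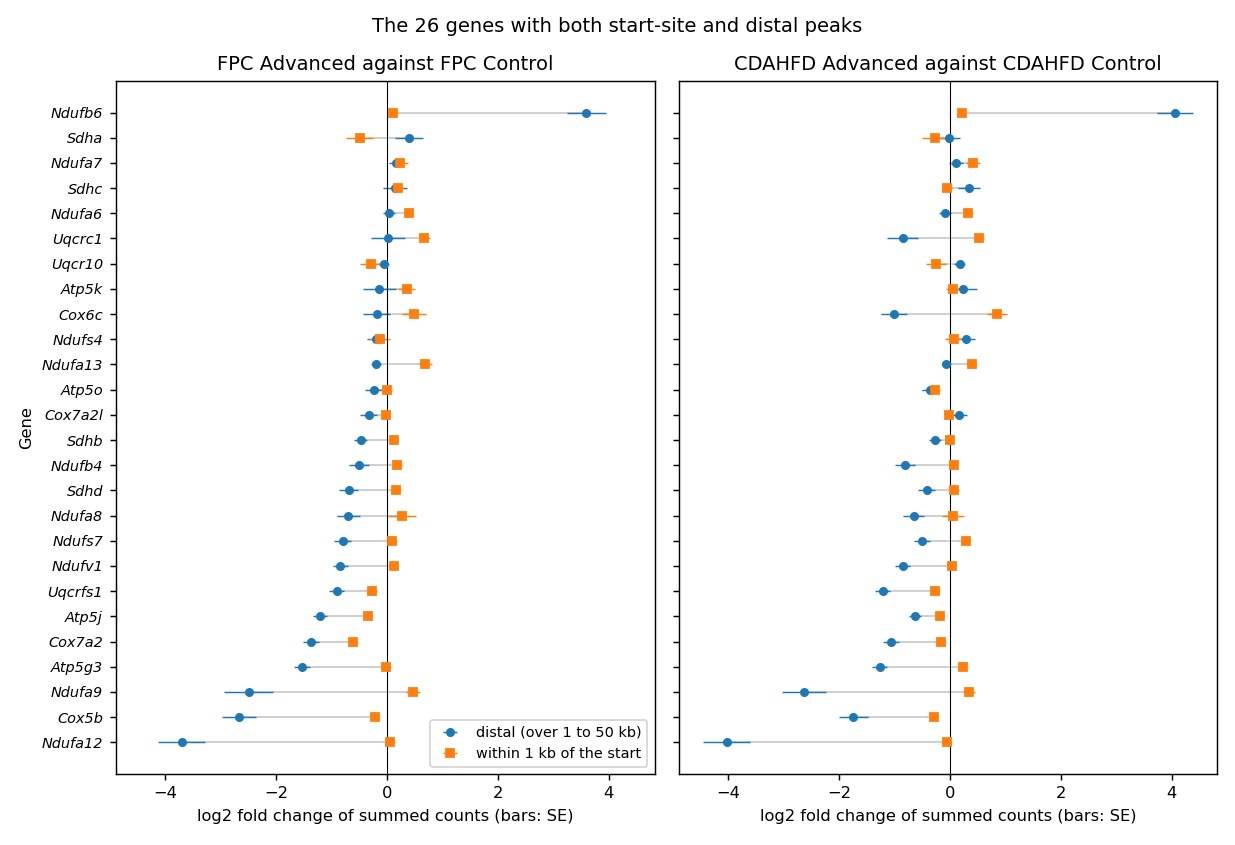
Log2 fold change in advanced over control livers, with SE bars, of start-site sums (squares) and distal sums (circles) for the 26 members with both, ordered by their distal change on FPC. Distal values run from -3.71 for Ndufa12 to 3.59 for Ndufb6 on FPC, while start-site values stay closer to 0.

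The strongest single gain was an intergenic peak before Ndufb6 at chr4:40291645-40291845, 12324 bases upstream of the start. It had 0.969, 0.530, 0.672 and 1.01 CPM in control, 4.22, 6.10, 4.82 and 6.33 in mild and 11.5, 9.69 and 10.2 in advanced FPC livers. On CDAHFD it had 0.42, 1.35, 0.48 and 0 CPM in control, 3.37, 3.13, 5.50 and 3.98 in mild and 11.1, 8.68 and 10.5 in advanced livers. The stages did not overlap, and the log2 fold changes were 3.69 ± 0.35 (adjusted p = 2.33e-09) and 4.11 ± 0.33 (adjusted p = 5.5e-11). The peak over the Ndufb6 start, at chr4:40279303-40279503, changed by 0.21 ± 0.09 and 0.27 ± 0.08. With the scaling factors of gene sums these were 0.11 and 0.21, and the FPC value was not called.

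The strongest loss lay in intron 3 of Ndufa12, at chr10:94205030-94205230. It had 4.60, 3.18, 8.74 and 9.11 CPM in control, 1.00, 0.359, 0.861 and 1.00 in mild and 0.506, 0.427 and 0.636 in advanced FPC livers. Every mild and advanced liver lay below every control, the mild and advanced ranges overlapped, and the controls spread widely. The change was -3.61 ± 0.43 on FPC and -3.97 ± 0.44 on CDAHFD, where advanced livers averaged 0.317 CPM and controls 5.88.

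Upstream of Ndufv1, neighbouring peaks at chr19:4024534-4024734 and chr19:4024299-4024499 lost accessibility. The first changed by -3.05 ± 0.35 on FPC and -2.82 ± 0.33 on CDAHFD, and the other by -2.50 ± 0.25 and -2.40 ± 0.24. The Ndufv1 start-site peak at chr19:4012675-4012875 held 47.4 CPM in advanced and 40.6 in control FPC livers (0.22 ± 0.08, adjusted p = 0.0141). With the scaling factors of gene sums its change was 0.12 ± 0.07, which was not called. Atp5g3 lost all 4 of its upstream intergenic peaks, by 0.88 to 2.61 on FPC and by 1.07 to 2.82 on CDAHFD. Its start-site peak at chr2:73911251-73911451 changed by 0.25 ± 0.11 on FPC (adjusted p = 0.0613) and rose by 0.45 ± 0.10 on CDAHFD. The intergenic peak after Cox5b at chr1:36695015-36695215 changed by -2.58 ± 0.30 and -1.69 ± 0.26.

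Some losses did include the start. The Cox7c peak at chr13:86046737-86046937, its single peak, changed by -0.44 ± 0.10 on FPC and -0.48 ± 0.10 on CDAHFD. Both Atp5s start-site peaks fell, by 0.48 and 0.59 on FPC and by 0.37 and 0.48 on CDAHFD. The single Ndufa4 peak at chr6:11907358-11907558 fell by 0.35 on FPC (adjusted p = 0.00286) and changed by 0.08 ± 0.09 on CDAHFD. Gains over starts included Ndufa10 at chr1:92473682-92473882 (0.45 ± 0.12 on FPC and 1.00 ± 0.11 on CDAHFD), Uqcrc1 at chr9:108936466-108936666 (0.94 ± 0.13 and 0.66 ± 0.12), Cox7a1 at chr7:30183998-30184198 (0.80 ± 0.12 and 0.71 ± 0.12), Atp5b at chr10:128083138-128083338 (0.49 ± 0.08 and 0.70 ± 0.08) and Atp5g1 at chr11:96075605-96075805 (0.57 ± 0.08 and 0.56 ± 0.08). Each peak is counted for its nearest start in the authors' annotation, which does not show that it acts on that gene.

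Genes that serve the chain were read from lists beside it, whose counts stand against the 30.1% of all genes that rose and 30.9% that fell in advanced FPC livers, and the 28.9% and 29.5% in advanced CDAHFD livers. Of 14 complex I assembly factors, 1 rose and 8 fell in advanced FPC livers, and 0 rose and 6 fell in advanced CDAHFD livers. Ndufaf4 had 68.6 CPM in advanced against 118 in control FPC livers (-0.79) and 64.5 against 111 CPM in advanced and control CDAHFD livers (-0.79), Acad9 changed by -0.65 and -0.47, and Ndufaf3 rose by 0.28 on FPC. Of 30 assembly factors of complexes II to V with a peak, 12 rose and 7 fell on FPC and 7 rose and 5 fell on CDAHFD. Coa3, a factor for complex IV, rose by 0.63 and 0.40, while Atpaf2, an ATP synthase assembly factor, fell by 0.84 and 0.66. The median change was -0.28 and -0.14 for the complex I factors on FPC and CDAHFD, and 0.07 and 0.04 for the factors of complexes II to V. The median of all genes was 0.0019 and -0.0097.

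Of 14 regulators of respiratory genes, 2 rose and 6 fell on FPC, and 1 rose and 5 fell on CDAHFD. Ppargc1a, a coactivator of mitochondrial biogenesis, had 104 CPM in advanced against 199 in control FPC livers (-0.93, adjusted p = 1.34e-08) and 116 against 193 CPM in advanced and control CDAHFD livers (-0.74, adjusted p = 2.66e-07). Ppargc1b fell by 0.38 and 0.31, Tfam, the mitochondrial DNA packaging factor, fell by 0.33 and 0.38, and Pprc1 rose by 0.56 and 0.26. Of 19 genes on a list of the citric acid cycle and pyruvate dehydrogenase, 1 rose and 10 fell on FPC. On CDAHFD 3 rose and 6 fell, and the share that fell there lies near that of all genes. Pdk1, a kinase that restrains pyruvate dehydrogenase, fell by 0.75 and 0.88, and Pdha1, a subunit of that enzyme, fell by 0.61 and 0.39.

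Of 17 genes for other electron entry points and carriers, 5 rose and 8 fell on FPC and 5 rose and 3 fell on CDAHFD. Ucp2, an inner-membrane carrier of the uncoupling protein family, had 43.1 CPM in advanced against 10.1 in control FPC livers (2.11) and 37.8 against 7.6 CPM in advanced and control CDAHFD livers (2.28). Slc25a4, the heart and muscle form of the ADP/ATP carrier, rose by 3.77 and 3.42, while its widely used relative Slc25a5 fell by 0.40 and 0.29. Among 9 chain genes that the name rule leaves out, 3 rose and 1 fell on FPC and 1 rose and 1 fell on CDAHFD; Cox4i2, an alternative subunit 4 of complex IV, fell by 0.65 and 0.39, and Atpif1, an inhibitor of ATP synthase, rose by 0.35 and 0.28.

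Sequence around the starts was read for 64 members with a RefSeq promoter window of 300 bases (250 before and 50 after the start). Motifs were searched on both strands, and a match describes letters and not binding. The NRF1 motif (GCGCA, any base, then GCGC) lay in 17 of 64 windows (26.6%), against 12.0% of the 8873 coding genes with a start-site peak. The ERR motif AAGGTCA lay in 8 (12.5%), against 3.97%; Ndufb2 has one outside the peak, in lower case above. The ETS motif CCGGAAG, bound by GABP, lay in 25.0% against 20.6%, and the YY1 motif ATGGCGG in 14.1% against 9.55%. The SP and KLF motif GGGCGG lay in 37.5% against 70.0%, and median GC content was 57.3% against 61.0%. The sets differ, as the 64 include Atp5h, Cox8b and Ndufb3, which have no start-site peak. Over all 17492 coding genes the shares were 7.17% for NRF1, 4.73% for ERR, 12.9% for ETS and 6.05% for YY1. For SP and KLF the share was 49.2%, and median GC content was 56.3%, below that of the members. These shares carry no test. In advanced FPC livers the median start-site change was 0.22 for 16 members with and 0.09 for 45 without an NRF1 match. On CDAHFD it was 0.07 and 0.08. With and without a YY1 match it was 0.01 and 0.12 on FPC, and 0.25 and 0.06 on CDAHFD. The FPC medians were 0.13 and 0.05 for ETS, 0.15 and 0.07 for SP and KLF, and 0.16 and 0.10 for ERR. On CDAHFD they were 0.09 and 0.06, 0.07 and 0.08, and 0.10 and 0.06. These medians carry no test either.

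A coding gene on the other strand started within 1 kb, head to head, for 15 of 64 members (23.4%), against 11.5% of coding genes with a start-site peak. Examples are Ndufa7 with Rps28 (10 bases between the starts), Ndufs3 with Kbtbd4 (19), Sdhd with Timm8b (52), Sdha with Ccdc127 (77) and Ndufa4 with Phf14 (379). At such shared starts the accessibility of the pair cannot be told apart.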

How the data were processed

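ATAC-seq counts per peak of 22 libraries were analysed. The submitters' processing notes name the mm10 build and, as tools, HOMER, BWA (0.7.5a-r405), DESeq2 and SAMtools. Further versions and peak settings were not given in the sources used. The authors' deposited un-normalized table holds expected counts (47.8% of values end in a step of 0.5, for a reason not given) for 68827 peaks of 200 bases, each with its nearest start, distance and gene from the authors. A normalized table of the same peaks was not used.

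Counts were summed per gene over peaks within 50 kb of the start, rounded to whole numbers and tested in R 4.3.3 with edgeR 4.0.16 (quasi-likelihood, 6 group means over 22 libraries, edgeR's low-count filter, library size the total of all peaks, TMM factors from gene sums, Benjamini-Hochberg over 15686 genes, 9 comparisons). The first fit used the gene sums as library sizes; this was changed after its results were seen, and both are compared in the closing section. Peaks were tested likewise with TMM factors from peaks, so peak values lie higher than gene values, by about 0.1 (log2) on FPC and 0.06 on CDAHFD, enough to change calls of single start-site peaks; counts under both scalings are given. Each SE was derived from the log2 fold change and its F statistic. CPM uses the same scaled totals. limma 3.58.1 (cyclic loess), DESeq2 1.42.0, Python 3.11.15, pandas 2.3.3 and matplotlib 3.10.9 served alternatives, tables and figures. The tests were first run on simulated data.

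The members and the 12 lists (170 genes, 137 with a peak) were chosen with earlier results of these data known, and lists are described by counts alone. Genes with values were, per advanced against control comparison, the 10 rising and 10 falling with the smallest p, per other comparison 4 and 4, and the member with the highest CPM of each complex; library values were given for the leading 3 and 3. Cox8b, Atp5h on both diets, Ndufs8, Uqcr11, Uqcrb, Atp5c1, Atp5o, Aqp1, the other complex II genes, the genes called in all 4 comparisons, library values of Ndufa4, and the printed promoters were chosen after values were seen, as were the peaks beyond the nearest and the one with the smallest p. Replicates of a group correlated at r of 0.981 to 0.993 (log2 CPM). A few genes that the rule picks are not reported here. Labels name no batch. The p-values set each change against a spread between mice that was estimated over all 22 libraries together.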

Additional observations from a re-analysis of the deposited data

Results flagged for a closer look

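Of 56 groups of 4 control or mild livers examined for a library apart from the others, 3 stood out, and chance flags about 1 in 20. All lie in CDAHFD controls. Atp5g3 was 81.3 CPM in replicate 3, below 90.6 to 92.0 in the others, and Uqcrfs1 was 79.4 CPM in the same replicate, above 77.3 to 77.6. Uqcrq was 147 CPM in replicate 1, below 172 to 173.

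The change from control differed between the diets by its own test (edgeR, FPC minus CDAHFD) for 6 values. In advanced livers the difference was -0.41 for Cox7a2, -0.26 for Atp5j, -0.48 for Ndufa4 and -0.38 for Ndufa10. In mild livers it was -0.52 for Ndufa4 and -0.65 for Ndufc2. Leaving out 1 library ended the advanced calls in 2 of 14 cases for Cox7a2, 7 for Atp5j, 7 for Ndufa4 and 12 for Ndufa10, and the mild call of Ndufc2 in 12 of 16 and of Ndufa4 in 0 of 16. With scaling factors of all peaks, all of these calls but the mild one of Ndufa4 were lost. Diet and feeding time cannot be told apart here.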

How the results depend on the processing

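No paired analysis was possible because replicate numbers only name libraries, each made from its own mouse. Leaving out 1 library at a time gave 15 to 21 rising and 20 to 21 falling members in advanced against control FPC livers, 14 to 17 and 16 to 20 on CDAHFD, 8 to 13 and 14 to 17 in mild FPC livers and 12 to 15 and 10 to 12 in mild CDAHFD livers. Advanced against mild gave 1 to 3 and 8 to 10 on FPC and 2 to 4 and 1 to 4 on CDAHFD. The diet difference gave 0 to 4 falling members in advanced and 1 to 3 in mild livers, and the control comparison 0 to 1 rising and 0 to 3 falling. Of 56 named changes against control, 55 kept their call in every leave-out; Ndufs5 in advanced FPC livers lost it in 1 (adjusted p over its alternatives 0.00095 to 0.051).

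Which peaks are summed changed most counts; fewer members have peaks of 1 class. With distal peaks alone, rising members were 2 in advanced FPC, 2 in advanced CDAHFD, 2 in mild FPC and 1 in mild CDAHFD livers, and falling members 8 in mild FPC livers. Rising members were then 1 in advanced against mild FPC and 1 in advanced against mild CDAHFD livers, with 5 falling in the last; falling members of the diet difference were 1 in advanced and 0 in mild livers, and the controls gave 0 rising and 0 falling. With peaks within 1 kb, falling members were 13 in advanced FPC, 12 in advanced CDAHFD and 6 in mild CDAHFD livers, 3 in advanced against mild FPC and 1 in advanced against mild CDAHFD livers, and the controls gave 2 rising. With TMM on these sums (chosen after seeing the data), falling members were 5 in advanced against mild FPC and 1 in advanced against mild CDAHFD livers, and controls gave 3 rising. With peaks within 10 kb, 5 rose in advanced against mild FPC and 1 fell in advanced against mild CDAHFD livers. Signs turned for Uqcrc1 with distal peaks (-0.85 in advanced CDAHFD livers, -0.45 in advanced against mild FPC livers), Atp5g3 within 1 kb (0.23, and 0.18 with TMM on these sums, advanced CDAHFD), Ndufv1 within 1 kb (0.045, advanced CDAHFD) and within 10 kb (0.091 advanced and 0.016 mild CDAHFD) and Ndufb6 with TMM on sums within 1 kb (-0.0078, advanced against mild FPC).

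Cyclic loess gave 5 rising members in advanced against mild FPC and 5 in advanced against mild CDAHFD livers, and 0 rising and 1 falling in controls. DESeq2 gave 1 falling member for the diet difference in mild livers and 0 rising and 1 falling in controls. Fitting the compared groups alone gave 2 and 1 falling for the diet difference in advanced and mild livers and 0 rising and 0 falling in controls. TMM factors of all peaks (chosen after seeing the data) gave 5 rising and 1 falling in advanced against mild CDAHFD livers, 0 and 1 falling for the diet difference in advanced and mild livers and 0 rising in controls. For single peaks, the scaling factors of gene sums (also added later) gave 27 rising and 19 falling start-site peaks in advanced FPC and 17 falling in advanced CDAHFD livers. Leaving out 1 library gave 28 to 42 and 9 to 12 rising and falling start-site peaks and 9 to 14 and 36 to 41 distal peaks on FPC, and 29 to 40, 6 to 10, 11 to 17 and 27 to 35 on CDAHFD. Library sizes from gene sums, also added later, gave 0 rising in controls, and 20 rising and 21 falling members in advanced against control FPC livers. The cause of these shifts was not tested. Over 79 named changes and their alternatives, 1436 of 1583 values kept direction and call, 139 lost the call and 8 turned sign. Part of this was fixed in advance. The low-count filter removed no gene, so the 79 values without it repeat the main fit. For the 44 members with start-site peaks only, sums within 1 kb and 10 kb hold the same counts as the main sums. The named changes were also picked by smallest p. Peaks with under 1 CPM in a group, as before Ndufb6, rest on few counts.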
